A study of Mus musculus with 2 samples.

Results

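The heavy chain variable segments of the mouse are the gene segments whose symbols start with Ighv. All 185 such features of the 32285 in the deposited count tables were taken. They carry 183 symbols, since Ighv5-8 and Ighv1-13 each stand for a pair of gene identifiers. The counts come from single spleen cells of 2 libraries made with droplet 3' chemistry: 1 from a wild-type mouse and 1 from a mouse with the M694I change knocked into Mefv, age-matched per the series' design text. Mefv encodes pyrin, an inflammasome sensor, and M694I is a change known from familial Mediterranean fever. The cells were whole spleen suspensions after red cell lysis. The sources used here do not state strain, sex or age, and each title names 1 mouse. The knocked-in change cannot be read from gene counts; Mefv itself had 144 UMIs (unique molecule counts) in the kept wild-type cells and 75 in the kept knock-in cells, which checks nothing.

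With 1 library per genotype no test was possible. Intervals below are exact 95% intervals that cover counting error only, and differences between genotypes cannot be told apart from differences between these 2 libraries.

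Each B cell builds its heavy chain by joining 1 variable segment to a diversity and a joining segment, and the joined exon is spliced to a constant region, Ighm first. The segment carries the first 2 antigen contact loops and the start of the third. A cell keeps 1 productive heavy chain, so the segment with the most UMIs in a cell, here called its leading segment, reads out which one it joined. T cells do not make heavy chains and should hold almost none. In the spleen, follicular and marginal zone B cells use many segments, while B-1 cells, an innate-like subset, are known for a few recurrent ones such as Ighv11-2 and Ighv12-3, which are linked to antibodies against phosphatidylcholine.

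The segments lie in 1 cluster on chromosome 12, chr12:113572927-116010093 in GRCm38 (mm10), all but 2 on the minus strand. GENCODE M21 calls 113 of them IG_V_gene and 2 IG_LV_gene, 115 functional segments in all, and 70 pseudogenes. Their symbols fall into 16 families by the number after Ighv. The last 90 bases of 11 segments are printed below from that annotation's transcripts, since the results turn on these: 4 that were among the 7 most used in the B cells of each library, the 2 whose use differed most clearly between them, the 2 known from B-1 cells and 3 of the leading plasma cell segments. All are on the minus strand and are germline sequence, not read from the cells. Capitals mark the codon of the conserved cysteine and the bases after it, where the third contact loop starts. That codon was taken as the last TGT or TGC with 1 other codon between it and a TAT or TAC codon before it.
Ighv3-6 (chr12:114288152-114288241): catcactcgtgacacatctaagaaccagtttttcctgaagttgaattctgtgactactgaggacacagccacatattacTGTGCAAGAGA
Ighv1-64 (chr12:115507545-115507634): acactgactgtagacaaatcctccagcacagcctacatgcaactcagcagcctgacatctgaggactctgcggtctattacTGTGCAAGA
Ighv1-81 (chr12:115920279-115920368): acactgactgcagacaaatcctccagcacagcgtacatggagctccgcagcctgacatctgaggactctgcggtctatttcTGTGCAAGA
Ighv1-26 (chr12:114788372-114788461): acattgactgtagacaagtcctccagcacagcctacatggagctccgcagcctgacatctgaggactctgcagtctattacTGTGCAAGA
Ighv2-2 (chr12:113588267-113588356): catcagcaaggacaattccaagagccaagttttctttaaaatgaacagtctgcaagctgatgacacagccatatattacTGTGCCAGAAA
Ighv5-17 (chr12:113859149-113859238): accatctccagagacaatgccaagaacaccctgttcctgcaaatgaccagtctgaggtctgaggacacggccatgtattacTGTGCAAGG
Ighv11-2 (chr12:114048241-114048330): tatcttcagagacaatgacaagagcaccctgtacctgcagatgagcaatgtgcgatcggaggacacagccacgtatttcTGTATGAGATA
Ighv12-3 (chr12:114366521-114366610): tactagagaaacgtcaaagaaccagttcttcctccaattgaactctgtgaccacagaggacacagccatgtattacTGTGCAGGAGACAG
Ighv9-3 (chr12:114140692-114140781): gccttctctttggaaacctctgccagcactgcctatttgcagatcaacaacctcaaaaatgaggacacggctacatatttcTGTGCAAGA
Ighv6-3 (chr12:114391712-114391801): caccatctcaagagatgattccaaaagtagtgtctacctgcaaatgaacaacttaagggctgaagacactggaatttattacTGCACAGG
Ighv1-53 (chr12:115158403-115158492): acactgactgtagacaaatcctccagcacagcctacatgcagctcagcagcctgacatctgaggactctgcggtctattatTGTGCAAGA
Over their last 270 bases, Ighv1-53 and Ighv1-64 share 94.8% of positions, and Ighv11-2 and Ighv12-3 share 58.9%. The Ighv1 segments above end on the same letters after the cysteine, whereas Ighv11-2 and Ighv12-3 end differently from them and from each other.

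Near-identical segments can take each other's reads. Of the 98 IG_V_gene segments detected, 42 share at least 1 stretch of 90 bases with another segment, but only 2 share at least 50% of their stretches. Ighv2-2 shares 30.4% of its stretches, with Ighv2-4 as its nearest relative. Ighv1-72 shares 52.8% of its stretches (nearest Ighv1-62-3, 99.3% identity) and Ighv11-2 shares 19.6% (nearest Ighv11-1, 98.9% identity), so counts of these are uncertain between the neighbours. Ighv11-1 led 0 wild-type and 3 knock-in B cells. Among the 15 IG_V_gene segments with no UMI, 10 share such a stretch; both IG_LV_gene segments had no UMI as well. Somatic mutations, which these counts cannot show, could also move reads between relatives.

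The files held 10449 wild-type and 9000 knock-in barcodes, of which 9478 and 8374 were kept. B cells had at least 3 UMIs of Cd79a, Cd79b and Ms4a1 summed and under 50 of Jchain: 6403 wild-type cells (median 2380 UMIs per cell) and 5417 knock-in cells (median 1887). Plasma cells, which secrete antibody, were taken as cells with at least 50 UMIs of Jchain: 33 wild-type and 151 knock-in cells, with medians of 12818 and 14112 UMIs. All 5 B cell markers and all 8 plasma cell markers were present in their classes, the latter at 40654 and 43762 UMIs per 1000000 UMIs (CPM) in plasma cells against 539 and 705 in B cells. These lists include the genes of the gates themselves (Cd79a, Cd79b and Ms4a1, and Jchain), so they are no independent check. Jchain alone made up 35515 and 37501 CPM in plasma cells. T cells, 1349 and 1330 of them, served as background. Markers of other cells were higher in the knock-in B cells, with all 3 erythroid markers at 57.4 and 614 CPM and all 5 myeloid markers at 343 and 548 CPM; their part in the values below was not tested. The libraries shared 27 barcode sequences; 23 and 25 of these were among kept cells.

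Ighv transcripts were rare outside plasma cells and nearly absent from T cells. Wild-type B cells held 738 Ighv UMIs, 37.6 CPM (34.9 to 40.4), and knock-in B cells 599, 42.4 CPM (39.1 to 45.9). The log2 ratio of knock-in over wild-type was 0.17 (0.02 to 0.33), and 0.15 (-0.01 to 0.31) once the highest cell of both libraries was left out. T cells held 1 and 2 Ighv UMIs. Plasma cells held 383 wild-type UMIs (859 CPM, 775 to 950) and 1116 knock-in UMIs (519 CPM, 489 to 551), with a median of 6 per cell in each library. The log2 ratio was -0.73 (-0.89 to -0.55), but 1 wild-type cell, led by Ighv1-66 with Igha, held 92 UMIs or 24.0% of that library's total. When the highest cell was taken out of both libraries the ratio was -0.40 (-0.58 to -0.20).

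Over all kept cells, wild-type Ighv stood at 38.1 CPM and knock-in Ighv at 73.6 CPM, a log2 ratio of 0.95 (0.84 to 1.06). The number of plasma cells moved with that value: they held 33.5% of the wild-type Ighv UMIs and 63.9% of the knock-in ones. Of the 185 features, 93 had a UMI among wild-type kept cells and 98 among knock-in ones, 110 in either, 81 in both, and 75 in neither. The pseudogenes held 15 and 10 UMIs in all.

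A leading segment was found in 636 wild-type B cells (9.93%, 9.21 to 10.7) and 509 knock-in B cells (9.40%, 8.63 to 10.2), against 0.0741% and 0.150% of T cells, whose median depths were 3186 and 2696 UMIs. In most of these B cells, 576 and 462, the call rested on 1 UMI. When each cell was thinned to 1000 UMIs, leaving out 21 wild-type and 112 knock-in B cells, the shares were 3.92% and 4.45%, in the opposite order, so no order between the libraries is read from them. In plasma cells the share was 84.8% (28 of 33, 68.1 to 94.9) and 93.4% (141 of 151, 88.2 to 96.8). Among cells whose leading segment had at least 3 UMIs, a second segment was seen in 1 of 12 and 1 of 9 B cells, and in 1 of 21 and 5 of 107 plasma cells. At this depth, most cells with a clear leading segment showed no other.

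In B cells the use of segments was broad and alike in rank between the libraries. In all, 88 segments led at least 1 wild-type B cell and 93 at least 1 knock-in B cell, 78 of them in both. In each library 17 segments covered 50% of the led cells, and 8 segments covered 31.9% and 31.0%. The effective number of segments (inverse Simpson index, the number of equally used segments that would give the same chance of a match between 2 cells) was 47.5 for wild-type and 49.7 for knock-in B cells. At 509 led cells, 84.3 segments were expected in the wild-type library and 93 were seen in the knock-in library. Over the 103 segments that led a B cell in either library, the shares correlated at Pearson 0.83 and Spearman 0.79, a description over segments that share both libraries' depth and the same mapping.

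**Figure D1:**
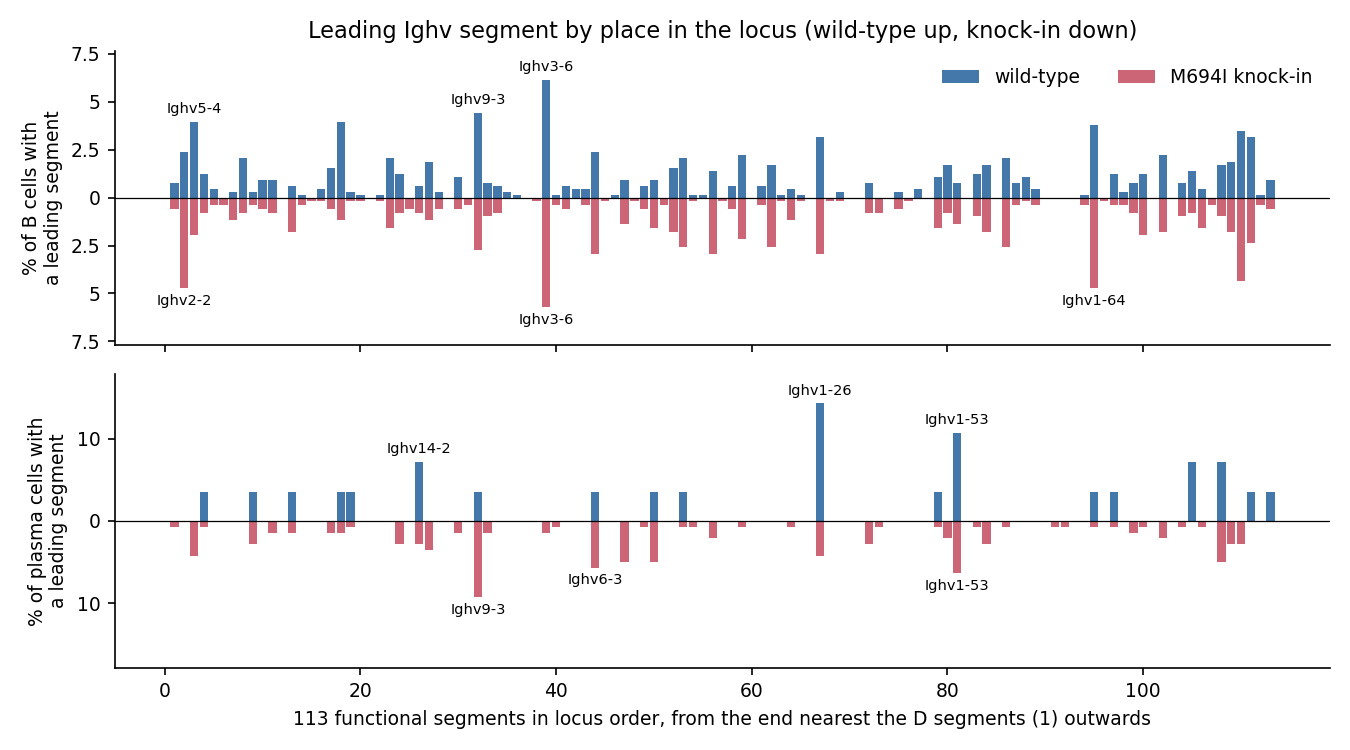
Share of cells led by each of the 113 IG_V_gene segments (y axis, percent of B cells or plasma cells with a leading segment) in locus order (x axis), with wild-type bars up and knock-in bars down and the 3 highest of each library named (for ties, the first in locus order). Ighv3-6 stands highest in both B cell panels, at 6.13% and 5.70%, while the plasma cell peaks differ between the libraries.

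Ighv3-6, the only segment ahead of all others in both libraries, led 39 wild-type B cells (6.13%, 4.40 to 8.29) and 29 knock-in B cells (5.70%, 3.85 to 8.08). Next in the wild-type library stood Ighv9-3 with 28 cells (4.40%), Ighv5-4 and Ighv5-17 with 25 each (3.93%), and Ighv1-64 with 24 (3.77%). In the knock-in library Ighv1-64 and Ighv2-2 followed with 24 cells each (4.72%), then Ighv1-81 with 22 (4.32%). Ighv1-81 led 22 wild-type B cells as well (3.46%), and Ighv1-26 led 20 and 15 (3.14% and 2.95%). Thus 5 of the 8 most used wild-type segments, Ighv3-6, Ighv9-3, Ighv1-64, Ighv1-81 and Ighv1-26, were also among the knock-in library's 8 most used.

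Few segments by number differed past 2-fold between the libraries, though their share stood above that over all features. Of the 19 segments that led at least 20 B cells over both libraries, 1 stood at least 2-fold higher in the knock-in library (5.26%) and 2 at least 2-fold lower (10.5%). Over all features with at least 20 UMIs in B cells, the shares past 2-fold were 2.31% higher and 2.23% lower. Measured by UMIs, 23 Ighv segments reached that minimum, 2 of them past 2-fold higher and 3 lower, with a median log2 ratio of 0.25 beside -0.04 over all features. The 19 segments were counted in led cells and all features in UMIs, and counting error is wide for segments with few led cells. These counts are small and the denominators differ, so they are given as a description.

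Ighv5-17, of the Ighv5 family, led 25 of 636 wild-type B cells (3.93%, 2.56 to 5.75) and 6 of 509 knock-in B cells (1.18%, 0.434 to 2.55), a log2 ratio of -1.74 (-3.31 to -0.42). With cells under 5% mitochondrial UMIs alone, which kept 3202 wild-type and 3976 knock-in B cells, the counts were 12 of 331 and 6 of 390 and the interval reached across 0 (log2 -1.24, -2.94 to 0.29). Ighv2-2 led 15 wild-type cells (2.36%, 1.33 to 3.86) and 24 knock-in cells (4.72%, 3.04 to 6.93), a log2 ratio of 1.00 (0.01 to 2.04). With doublets kept, and also with ties split equally, it was 0.91 (-0.06 to 1.92). With cells under 5% mitochondrial UMIs alone it was 0.84 (-0.37 to 2.17), from 9 of 331 and 19 of 390. With at least 2 UMIs for a leading segment it was 1.35 (-1.45 to 4.82), from 2 and 4 cells. For these 2 of the 19 segments alone the interval left out 0, with no adjustment for the number of segments.

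Ighv1-9 led 9 and 15 B cells, a log2 ratio of 1.06 (-0.23 to 2.43), and Ighv5-4 led 25 and 10, a log2 ratio of -1.001 (-2.22 to 0.11). Ighv9-3 stood at -0.68 (-1.72 to 0.30) and Ighv1-82, with 20 and 12 cells, at -0.42 (-1.58 to 0.69). Ighv1-64, Ighv1-81 and Ighv6-3 each had a log2 ratio of 0.32, since each led as many cells in one library as in the other (24, 22 and 15). Ighv1-72, a segment known from antibodies against the hapten nitrophenyl, led 14 and 9 B cells (2.20% and 1.77%). Ighv7-1, known from antibodies against phosphorylcholine, led 1 cell in each library, and Ighv5-2, near the diversity segments and known for early use in development, led 5 and 3. For all of these the intervals of the ratio covered 0, which does not show that their use was the same.

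**Figure D2:**
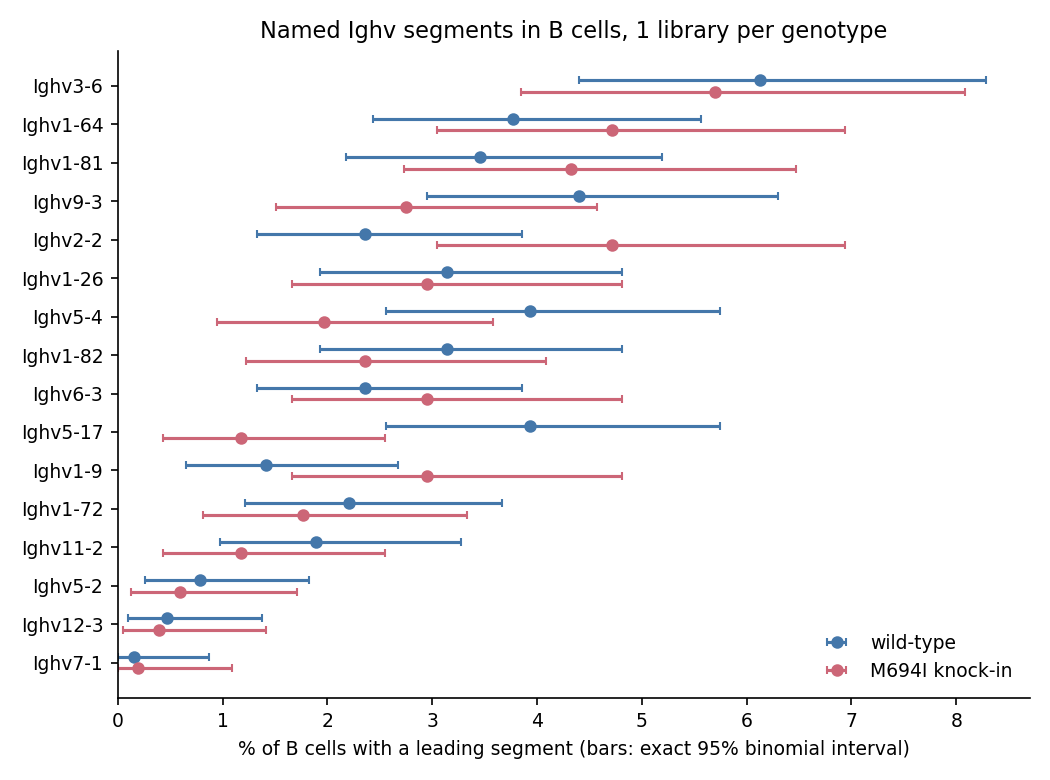
Share of B cells with a leading segment that each named segment led (x axis, percent; points with exact 95% binomial intervals) in the wild-type and the knock-in library. The intervals of the shares of Ighv5-17 (3.93% and 1.18%) do not overlap, and those of the other segments do.

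By family, Ighv1, the largest with 93 features, led 47.2% of the wild-type B cells with a leading segment (300 of 636, 43.2 to 51.1) and 49.5% of the knock-in ones (252 of 509, 45.1 to 53.9). The Ighv5 family led 81 cells (12.7%, 10.2 to 15.6) and 37 cells (7.27%, 5.17 to 9.88), a log2 ratio of -0.81 (-1.41 to -0.23). This was the only B cell family whose interval left out 0, of the 13 with led cells in both libraries. The ratio shrank to -0.56 (-1.28 to 0.15) with cells under 5% mitochondrial UMIs alone. With cells thinned to 1000 UMIs it was -0.76 (-1.65 to 0.09). With at least 2 UMIs for a leading segment it was -1.65 (-4.92 to 0.68), from 8 and 2 cells. The Ighv5-17 and Ighv5-4 cells are part of this family. Ighv3 led 8.49% and 7.47%, Ighv2 7.70% and 9.82%, Ighv9 5.66% and 4.13%, and Ighv8 3.93% and 5.50%. The families Ighv12, Ighv13 and Ighv15 led at most 3 cells in a library, and Ighv16 led 0 of 636 and 0 of 509, which allows up to 0.472% and 0.589%.

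Use was spread over the whole locus. Cut into 4 stretches of equal length, the stretch nearest the diversity segments (chr12:113572927-114182218, with 35 functional segments) led 34.0% of wild-type and 28.9% of knock-in led B cells, and the second (34 functional segments) led 28.5% and 33.4%. The third led 13.2% and 12.8% and the farthest 24.4% and 24.95%, each with 23 functional segments. The log2 ratios of the 4 stretches ran from -0.23 (-0.55 to 0.08) to 0.23 (-0.08 to 0.54).

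**Figure D3:**
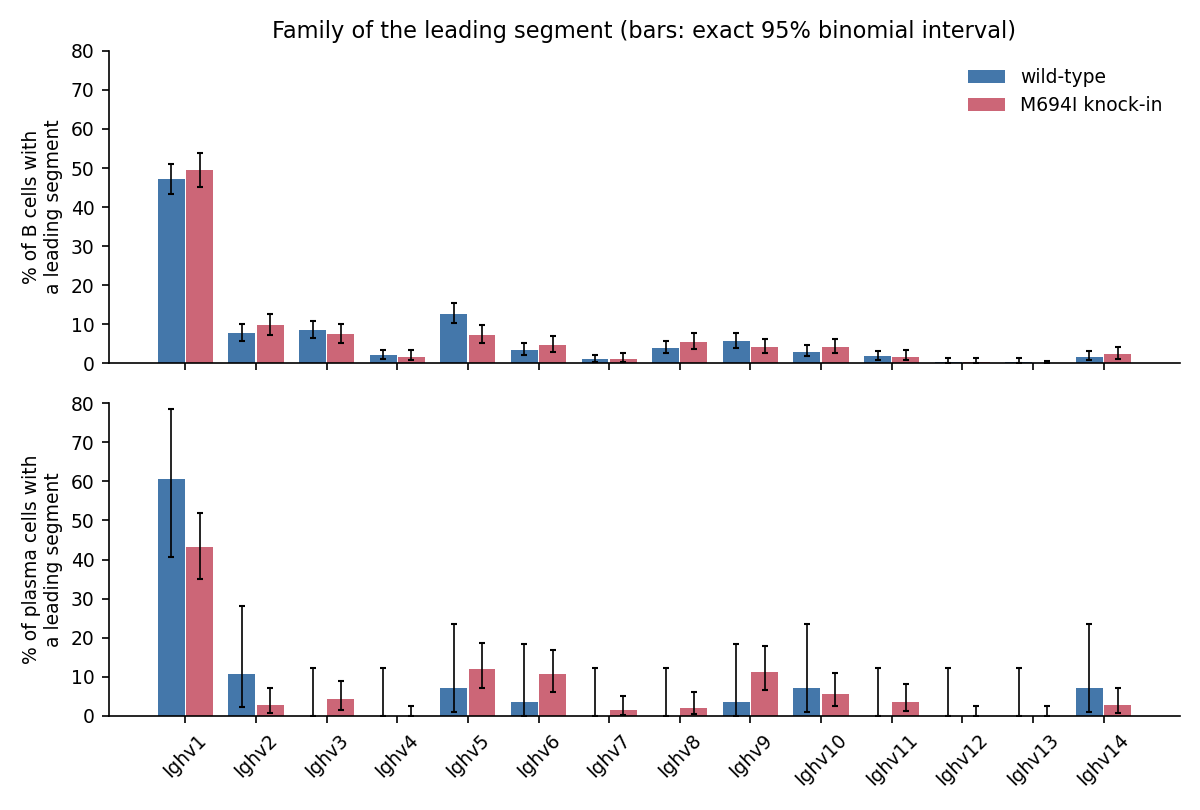
Share of cells led by each family (y axis, percent of B cells, upper panel, or plasma cells, lower panel, with a leading segment; bars with exact 95% binomial intervals), families Ighv15 and Ighv16 left out. Ighv1 leads in all 4 groups, and in B cells Ighv5 is lower in the knock-in library (7.27%) than in the wild-type one (12.7%).

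To ask how segments were used by B cell stage, B and plasma cells of both libraries were clustered without immunoglobulin or T cell receptor genes, so no Ighv count entered the clusters. Names rest on markers only, and the rule for reading them was chosen with the clusters in view. A B-1-like cluster (Bhlhe41, Zbtb32, Ctla4, S100a6) held 235 B cells of the wild-type and 249 of the knock-in library. An immature or transitional-like cluster (Vpreb3, Sox4, Myb, Ly6d) held 999 and 797. A pair of marginal zone-like clusters (Cr2, Cd1d1, Tm6sf1 in both) held 647 and 435, an activated-like cluster (Mir155hg, Nfkbid, Irf4, Myc) 556 and 220, and a proliferating-like cluster 52 and 92. Most other B cells lay in clusters that stayed unnamed. Clusters with markers of myeloid, NK or T cells held 175 (2.73%) and 171 (3.16%) of the cells in the B gate. Without them a leading segment was found in 10.0% and 9.32% of B cells. A cluster with markers of both proliferation (Mki67, Top2a) and plasma cells (Xbp1, Prdm1) held 2 wild-type and 18 knock-in cells over both gates. A few other cells of the plasma gate fell in clusters with NK, myeloid, T cell or proliferation markers. Among them was 1 of the 4 wild-type plasma cells led by Ighv1-26.

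Ighv11-2 led the most B-1-like cells in each library and few other B cells. It led 11 of the 30 led B-1-like cells in the wild-type library (36.7%, 19.9 to 56.1) and 5 of 31 in the knock-in library (16.1%, 5.45 to 33.7). Among all other led B cells it led 1 of 606 and 1 of 478. The log2 ratio of B-1-like over other B cells was 7.80 in the wild-type and 6.27 (3.11 to 11.8) in the knock-in library. No other segment met the rule for a stage (at least 10 led cells of the stage and 2-fold in each library). In the B-1-like cluster none other could, since the next segments led at most 2 wild-type and 3 knock-in cells. The 1 wild-type cell led by Ighv11-2 outside the B-1-like cluster lay among the marginal zone-like cells, and the knock-in one in the cluster with T cell markers. Within the B-1-like cells the intervals of the 2 libraries' shares overlapped, though each share lay outside the other's interval; the difference was not tested. The cluster's cells were deeper than B cells as a whole, with medians of 3890 and 3545 UMIs. With cells under 5% mitochondrial UMIs alone, Ighv11-2 led 4 of 7 wild-type and 1 of 12 knock-in led B-1-like cells.

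Ighv12-3 led only 3 wild-type and 2 knock-in B cells; 2 of the 3 and both of the 2 were B-1-like, and the remaining one was activated-like. The kappa light chain segment Igkv14-126, known as a partner of Ighv11-2, had a UMI in 1 of 12 and 2 of 6 B cells led by Ighv11-2, against 2 of 624 and 0 of 503 led by another segment (the latter allows up to 0.596%). It had a UMI in 3 of 235 and 5 of 249 B-1-like cells, in 6 of 6168 and 1 of 5168 other B cells, and in 0 of 1349 and 0 of 1330 T cells, which allows up to 0.222% and 0.226%. The effective number of segments in B-1-like cells was 7.5 from the 30 wild-type led cells and 25.8 from the 31 knock-in ones. At 20 led cells, 12.4 and 14.8 segments were expected there.

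Marginal zone-like cells had the lowest Ighv level of the named stages with at least 20 Ighv UMIs per library. Their summed Ighv stood at 13.4 CPM (wild-type, 9.66 to 18.0) and 21.2 CPM (knock-in, 15.3 to 28.7), against 42.3 and 45.8 CPM in all other B cells. The log2 ratios were -1.66 (-2.14 to -1.22) and -1.11 (-1.60 to -0.66). These cells were deep, with medians of 4523 and 4062 UMIs, and their Ighm level was 1747 and 1825 CPM, beside 2168 and 2320 CPM over all B cells. Per 1000 Ighm UMIs they held 7.64 and 11.6 Ighv UMIs, beside 9.67 and 9.45 in B-1-like, 11.2 and 11.8 in immature or transitional-like and 25.4 and 32.1 in activated-like cells. On that scale they were the lowest of these 4 stages in the wild-type but not in the knock-in library. Proliferating-like cells, with only 15 and 19 Ighv UMIs, stood at 25.6 and 18.6 CPM. Immature or transitional-like cells stood higher, at 50.3 and 47.5 CPM, with log2 ratios over other B cells of 0.49 (0.19 to 0.77) and 0.19 (-0.19 to 0.54).

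At 20 led cells, wild-type immature, marginal zone and activated-like cells were expected to show 16.7, 15.2 and 17.3 segments, and knock-in immature and marginal zone-like cells 17.01 and 16.3. The B-1-like values of 12.4 and 14.8 were the lowest of these. Ighv1 led 48.1% and 47.8% of the led immature or transitional-like cells, 41.5% and 53.7% of the marginal zone-like cells and 26.7% and 32.3% of the B-1-like cells. The intervals for B-1-like cells, 12.3 to 45.9 and 16.7 to 51.4, overlap those of both other stages.

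**Figure D4:**
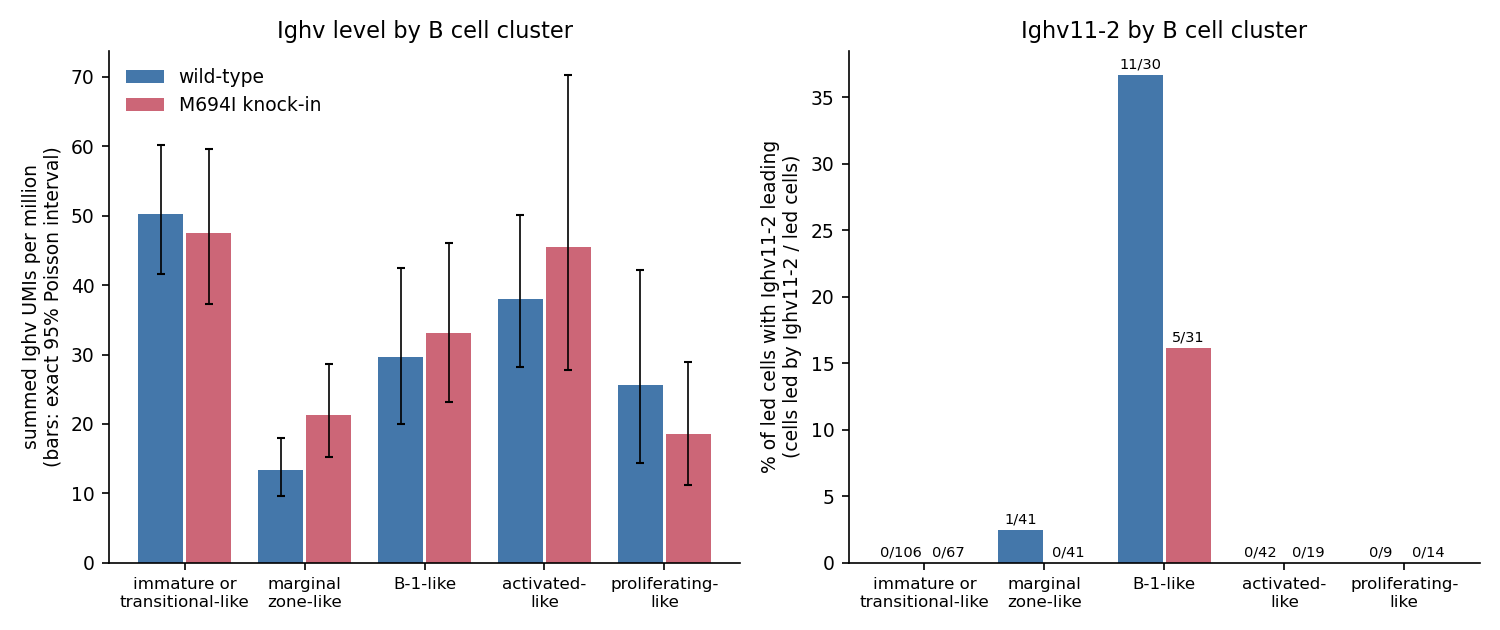
Left, summed Ighv CPM (y axis; bars with exact 95% Poisson intervals) in 5 named B cell stages of each library; right, percent of led cells led by Ighv11-2, with the cells printed above each bar. Marginal zone-like cells have 13.4 and 21.2 CPM, and Ighv11-2 stands out in B-1-like cells, with 11 of 30 and 5 of 31.

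Plasma cells of the knock-in library used fewer segments than its B cells, and different ones led. In the knock-in library 47 segments led 141 plasma cells, with an effective number of 32.5; at 141 led cells, 60.5 segments were expected from the knock-in B cells. In the wild-type library 20 segments led 28 plasma cells. At 28 led cells the 4 groups stood at 20 (wild-type plasma), 19.7 (knock-in plasma), 21.8 and 22.0 (B cells), so plasma cells stood only slightly lower in each library. The larger gap at 141 led cells rests on the knock-in library alone. Of its 134 plasma cells with both a leading heavy and a leading kappa segment, 52 shared the pair with another cell. The part of repeated clones in the lower number was not tested. In the knock-in library 10 segments covered 50% of the led plasma cells, against 17 in its B cells.

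Ighv9-3 led 13 of the 141 knock-in plasma cells (9.22%), with 1 to 18 UMIs per cell and a median of 7. It led 2.75% of knock-in B cells, a log2 ratio of plasma over B cells of 1.75 (0.54 to 2.94). Ighv1-53 followed with 9 cells (6.38%, log2 2.21, 0.62 to 3.87), and Ighv6-3 with 8 (5.67%, log2 0.95, -0.50 to 2.27). Ighv6-6, Ighv10-1 and Ighv1-78 led 7 cells each (4.96%), with log2 ratios of 1.85 (0.11 to 3.59), 1.66 (-0.04 to 3.32) and 2.34 (0.47 to 4.34). In the other direction stood Ighv3-6, the first segment of the B cells, which led only 2 plasma cells (1.42%, log2 -2.01, -5.12 to -0.02). Ighv1-64 led 1 (log2 -2.73, -8.09 to -0.12), and Ighv2-2 led 0 of 141, which allows up to 2.13%. Most of these segments were picked by their rank in the same plasma or B cells, which pushes the ratios away from 0. There was no adjustment for the number of segments. The intervals also count cells as independent, though 9 of the 13 Ighv9-3 cells shared Igkv5-39 as their leading kappa segment. The ratios are therefore a description.

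Ighv11-2 led 5 knock-in plasma cells (3.55%), all with Ighm as their most abundant constant region, and 0 of 28 wild-type plasma cells, which allows up to 10.7%. Their Ighv11-2 UMIs were 27, 21, 6, 5 and 2, and the cell with 21 carried Igkv14-126 as its leading kappa segment. Ighv1-26 and Ighv5-4 led 6 knock-in plasma cells each. In the wild-type library Ighv1-26 led 4 cells, Ighv1-53 led 3, and no other segment led more than 2. The 28 wild-type cells were too few to set single segments against the knock-in library: Ighv9-3 led 1 of them.

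Ighm was the most abundant constant region in 105 of the 141 led knock-in plasma cells (74.5%, 66.4 to 81.4), spread over 38 segments, and in 17 of 28 wild-type ones (60.7%, 40.6 to 78.5), over 14 segments. The remaining knock-in cells had Ighg3 (10), Igha (9), Ighg2b (9), Ighg2c (7) and Ighg1 (1). Of the 13 Ighv9-3 cells 12 had Ighm and 1 had Ighg2b, and all 8 Ighv6-3, all 7 Ighv6-6 and all 6 Ighv5-4 cells had Ighm. Ighv10-1 differed, with 2 Ighm, 2 Igha, 2 Ighg2c and 1 Ighg2b cells. None of the 4 Ighv1-55 cells had Ighm: 3 had Ighg3 and 1 Ighg2b. In the wild-type library the 4 Ighv1-26 cells had Ighg2c (2) and Ighg3 (2), whereas all 6 knock-in Ighv1-26 cells had Ighm.

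**Figure D5:**
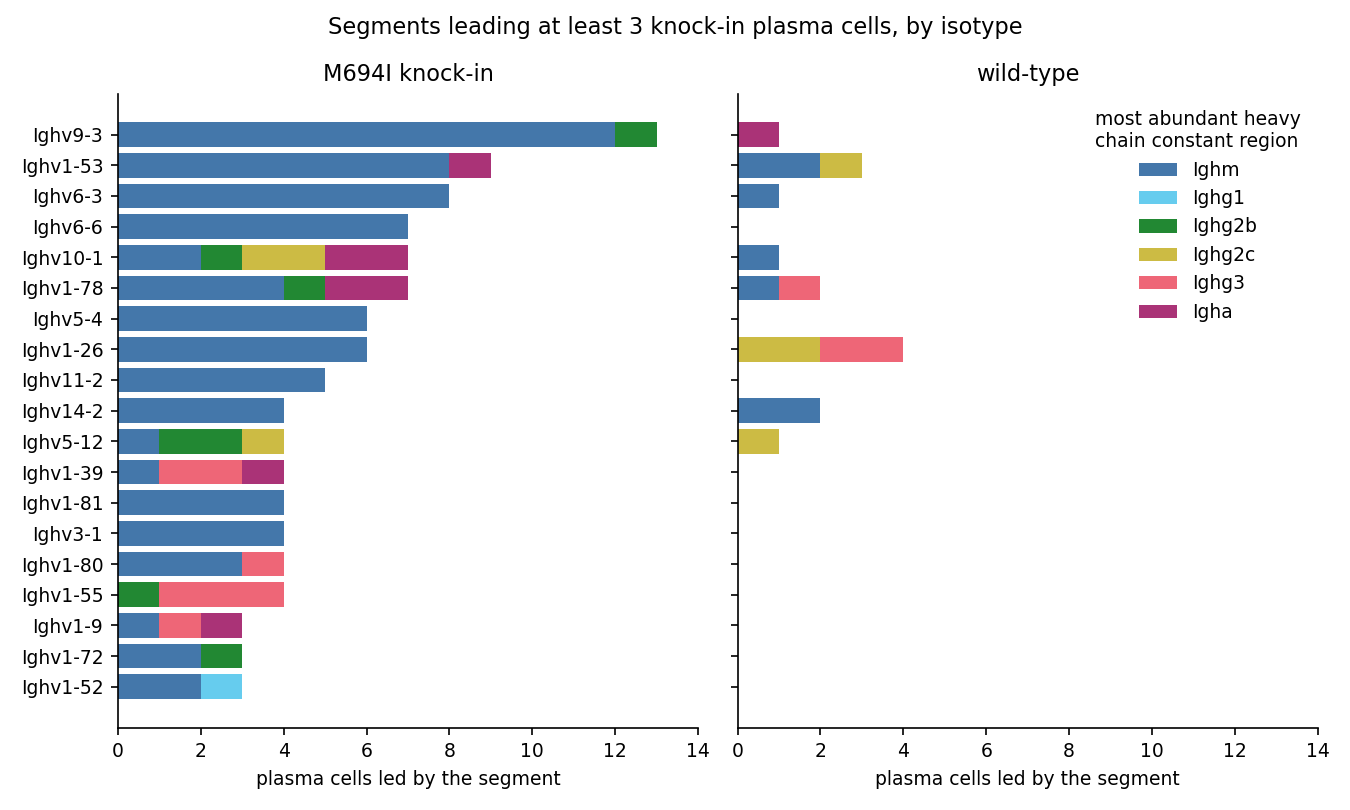
Plasma cells led by each segment (x axis, number of cells), coloured by the most abundant heavy chain constant region of the cell, for the segments leading at least 3 knock-in plasma cells; knock-in left, wild-type right. Ighv9-3 leads 13 knock-in cells, 12 of them with Ighm, while the 28 led wild-type cells are spread thinly.

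Pairing with the kappa light chain was read from the kappa segment with the most UMIs in each plasma cell. Lambda segments were left out after the values had been seen, because Iglv1 had a UMI in 90.9% of wild-type and 86.1% of knock-in plasma cells. In the knock-in library 134 plasma cells had both a leading heavy and a leading kappa segment, in 99 pairs. Of these, 17 pairs occurred in at least 2 cells and covered 52 cells. The most frequent was Ighv9-3 with Igkv5-39, in 9 cells, 8 with Ighm and 1 with Ighg2b. Ighv1-78 with Igkv2-137 occurred in 4 cells that carried 3 isotypes: Ighm in 2, Igha in 1 and Ighg2b in 1. Ighv1-81 with Igkv4-72 occurred in 4 cells, all with Ighm. In the wild-type library 28 cells held 26 pairs, of which 2 occurred in 2 cells each.

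Igkv5-39 was also the leading kappa segment beside other heavy chain segments: with Ighv5-4 in 5 cells, with Ighv3-1 in 4 and with Ighv10-1 in 3, and in all with 8 segments over 25 of the 151 knock-in plasma cells (16.6%, 11.01 to 23.5). Its UMIs in these cells ran from 1 to 12, with a median of 4. It had a UMI in 0 of 33 wild-type plasma cells, which allows up to 9.09%. In B cells it had a UMI in 1 of 6403 wild-type and 5 of 5417 knock-in cells, and in T cells in 0 of 1349 and 0 of 1330. The third contact loop was not read here, so whether cells with the same pair belong to 1 clone was not tested, and cells of a clone are not independent.

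Among the other genes of heavy chain assembly, those past 2-fold in B cells were constant region genes and Jchain. Over all features 2.31% stood past 2-fold higher and 2.23% lower, so a count of none in lists as short as the following is near the background. Of 11 genes of V(D)J recombination, 8 reached 20 UMIs and none passed 2-fold (median log2 0.17, beside -0.04 over all features); Rag1, of the recombinase itself, had 14 and 5 UMIs. All 5 genes of switching and hypermutation were measured and none passed 2-fold. None of 9 transcription factors passed 2-fold (median -0.31); Irf4, which acts in activation and plasma cell formation, stood at -0.71, the lowest of them. Nor did the receptor partners Cd79a (0.27) and Cd79b (0.30). The surrogate light chain gene Vpreb1 had 2 and 15 UMIs, Igll1 0 and 8, and the 4 joining segments had none in either library.

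Of 9 constant region genes, counting Jchain, the joining chain of secreted IgM and IgA, 8 were measured in B cells and 4 stood past 2-fold higher in the knock-in library, none lower, where 2.31% and 2.23% of all features did. Igha stood at 8.60 and 64.4 CPM (log2 2.90, 2.67 to 3.15), Jchain at 8.04 and 54.2 (2.75, 2.50 to 3.01), Ighg2b at 8.09 and 46.0 (2.51, 2.25 to 2.77) and Ighg2c at 3.72 and 7.50 (1.01, 0.57 to 1.46). Ighg3 had a log2 ratio of 0.96, Ighg1 of -0.72, Ighm of 0.10 and Ighd of -0.07. Single cells weighed on these values: 1 knock-in cell held 592 of the 910 Igha UMIs and 1 held 161 of the 650 Ighg2b UMIs. Without the 6 knock-in B cells that fell in the plasma clusters, the log2 ratios were 1.39 for Igha, 2.45 for Jchain and 2.10 for Ighg2b. For Ighm it was then 0.01 (-0.01 to 0.03), so the higher Ighm value rested on those cells. In T cells Jchain (2.43 and 8.56 CPM), Ighg2b (0.20 and 3.67 CPM), Igha (2.43 and 5.14 CPM) and Ighm (76.1 and 137 CPM) were also higher in the knock-in library. Ighg1 had 0 and 3 T cell UMIs. Ighg2c (1.62 and 0.978 CPM, 8 and 4 UMIs), Ighg3 (2.02 and 1.47 CPM, 10 and 6 UMIs) and Ighd (5.26 and 3.91 CPM, 26 and 16 UMIs) were lower in the knock-in T cells. The part of free RNA from plasma cells in the B cell values was not tested. Those 6 cells held 26 of the 599 knock-in B cell Ighv UMIs.

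In plasma cells, 25 Ighv segments reached 20 UMIs over both libraries, and 9 stood past 2-fold higher and 10 lower in the knock-in library; over all features the shares were 5.93% and 5.07%. Each of these segments rests on the few cells it leads (at most 13 in a library), so a segment's UMI ratio there is the ratio of single cells. Among the constant regions Ighg2b stood at 108 and 5520 CPM and Ighg1 at 24.7 and 477 CPM, while Igha (23915 and 7221), Ighg3 (18659 and 7360) and Ighg2c (12861 and 4187) were lower. These levels rest on few cells as well. Igha was the most abundant in 3 of 33 wild-type and 9 of 151 knock-in plasma cells, Ighg3 in 4 and 10, and Ighg2c in 4 and 7. A single wild-type cell held 5975 of the 10661 Igha UMIs, and Ighg1 was the most abundant in 1 knock-in cell. The wild-type library held no led plasma cell with Ighg2b or Ighg1 leading.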

How the data were processed

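Spleen cells of 1 wild-type and 1 M694I knock-in library were measured. The deposited counts are whole UMIs per gene and barcode. According to the file headers, the authors made these counts with Cell Ranger 6.1.2. Version 7.1.0 of that tool, Seurat 5.0.3 and the build mm10 stand in the submitters' processing notes. A 3' library reads transcripts from the constant region's end, which leaves the variable segment few UMIs. Which reads on near-identical segments were counted is not given in the sources used here.

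Cells needed at least 500 UMIs, 200 genes and under 10% mitochondrial UMIs. Doublets were cells with a Scrublet score over 0.35 (scanpy 1.11.5), 255 wild-type and 209 knock-in, a limit set after the automatic one failed in the knock-in library. A leading segment needed at least 1 UMI and no tie. T cells had at least 3 UMIs of Cd3d, Cd3e and Cd3g, none of the B cell genes and under 50 of Jchain. Clusters used 2000 variable genes, 30 components, 15 neighbours and Leiden clustering at resolution 1; a name needed 3 markers among the 100 leading genes, more than any other list. CPM takes all UMIs of the same cells as its total. Intervals are Clopper-Pearson, exact Poisson or exact conditional binomial. A feature counted as past 2-fold needed 20 UMIs summed over both libraries; counts under 3 in a library were set to 3 for it. A count of 0 is given with the share that 3 counts would make. Calculations were tested on simulated data.

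Named segments are the 8 that led the most B cells per library, the 5 highest and 5 lowest ratios among those leading 30 B cells, all leading 3 plasma cells of a library, those of a stage by the rule given above, and Ighv11-2, Ighv12-3, Ighv7-1, Ighv5-2, Ighv2-2 and Ighv1-72. Segments and lists were chosen with earlier results of these data known. Some single genes of the lists are not reported here. Alternatives covered cell filters, gates, ties, thinning and totals, with TMM factors from edgeR 4.0.16.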

Additional observations from a re-analysis of the deposited data

How the results depend on the processing

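No paired analysis was possible because each genotype has 1 library, and for the same reason no library could be left out. Over the alternatives run (cell filters, gates, doublets, shared barcodes, at least 2 UMIs for a leading segment, ties, thinning, totals, clustering, and clusters of other lineages left out, the last chosen after seeing the data), 99 of 106 recomputed values of the main results stayed within their interval or within 1.5 times. The exceptions were these. When the highest cell was taken out of both libraries, the plasma cell Ighv ratio was -0.40. With cells thinned to 1000 UMIs, the ratio of the shares of B cells with a leading segment was 0.18, on the other side of 0. With at least 2 UMIs for a leading segment, which left 60 and 47 B cells, the effective numbers in B cells were 21.6 and 31.8 and the wild-type Ighv1 share was 35.0%. With cells under 5% mitochondrial UMIs, which left 3202 of 6403 wild-type B cells, the knock-in effective number was 66 in B-1-like and 23.6 in marginal zone-like cells. For that limit the wild-type library gave no value in B-1-like cells (7 led cells) or marginal zone-like cells (16, each led by a different segment). Of the named segments' shares, 434 stayed within their intervals and 52 did not; 40 of these came from the limit of 2 UMIs. The depth limits all shares of single segments: most rest on cells with 1 UMI.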
